A study of Sus scrofa with 21 samples.

Results

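The proteasome is the protease that breaks down proteins tagged with ubiquitin, and the ubiquitin-conjugating enzymes (E2) are the middle step of the tagging. Genes of both were taken from porcine microarrays of the infarcted heart as every probe set whose platform symbol starts with PSMA, PSMB, PSMC, PSMD, PSME, PSMF or UBE2. The interferon-inducible subunits PSMB8, PSMB9 and PSMB10 were left out. One probe set was kept per gene, that with the highest mean over the 21 arrays. This gave 60 genes, 36 of the proteasome and 24 E2 enzymes, of the 6765 genes to which the platform gives 1 symbol. All 60 passed the filter on low values, a log2 value above 3 in at least 10 arrays.

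Female Landrace x Large White pigs, whose age the labels do not give, had the circumflex artery's first marginal branch tied off for good. Each of the 9 infarcted pigs, 3 per stage, gave infarct core (IC), taken from the left ventricular scar, and remote myocardium (RM), taken from the septum, at 1, 4 or 6 weeks after the infarct (6, 30 or 45 days in the labels). Control myocardium (CM) came from 3 other pigs, which the labels call sham-operated at 0 days and the study's text calls healthy. No control was matched to a stage, so in comparisons with CM the infarct and the time since surgery cannot be told apart. Total RNA of each tissue piece was hybridized to 1 Affymetrix array, so each of the 7 groups holds 3 arrays of 3 pigs.

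Ubiquitin is activated by an E1 enzyme, passed to an E2 enzyme and then attached to a target protein with the help of an E3 ligase. Certain ubiquitin chains mark a protein for the 26S proteasome, in which a 19S cap binds and unfolds the target and a barrel, the 20S core, cuts it. Cardiac muscle depends on this route for the turnover of its contractile proteins. The values below are transcript levels on a log2 scale. They can be set against each other between arrays for 1 probe set, but not between probe sets.

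IC was compared with CM to find how the scar differed from control tissue at each stage. Most genes of the proteasome were lower in IC than in CM at each stage, while the E2 enzymes moved both ways. In IC at 1 week 19 of the 36 proteasome genes fell and 1 rose, at 4 weeks the counts were 24 and 2, and at 6 weeks 25 and 0 (limma over all 12180 probe sets tested, adjusted p under 0.05). As shares, 52.8%, 66.7% and 69.4% of them fell, where 28.2%, 29.1% and 26% of all probe sets tested did. Their median log2 FC was -0.32, -0.50 and -0.45 at the 3 stages, beside -0.06, -0.06 and -0.08 over all probe sets. The 24 E2 enzymes had 5 higher and 3 lower at 1 week, 4 and 8 at 4 weeks, and 2 and 7 at 6 weeks, with medians of 0.09, -0.03 and -0.15. Among all probe sets 26%, 25.3% and 21% rose. The comparisons at the 3 stages share the 3 CM arrays.

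The size of the proteasome shift depended on how the arrays were scaled. After cyclic loess, a normalization that removes differences between arrays that follow the level of a probe set, the median log2 FC of the 36 genes was -0.08, -0.20 and -0.23. The genes called lower were then 12, 12 and 10, and those called higher 4, 3 and 0, beside 26%, 26.7% and 22% of all probe sets called lower. For all 60 members cyclic loess gave 10 higher and 15 lower at 1 week, 10 and 19 at 4 weeks, and 4 and 16 at 6 weeks, in place of 6 and 22, 6 and 32, and 2 and 32. The share of all probe sets called higher after cyclic loess is not given, so the counts called higher are description only. Centring moved the counts the other way. With each array centred on its median 27, 41 and 36 members were lower. With the ribosomal protein genes as the centre the counts were 26, 42 and 38. Centring also moved the median of all probe sets, by -0.11, -0.07 and -0.04 and by -0.18, -0.29 and -0.16. The share of all probe sets called lower after centring is not given, so these counts cannot be set against it.

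**Figure D1:**
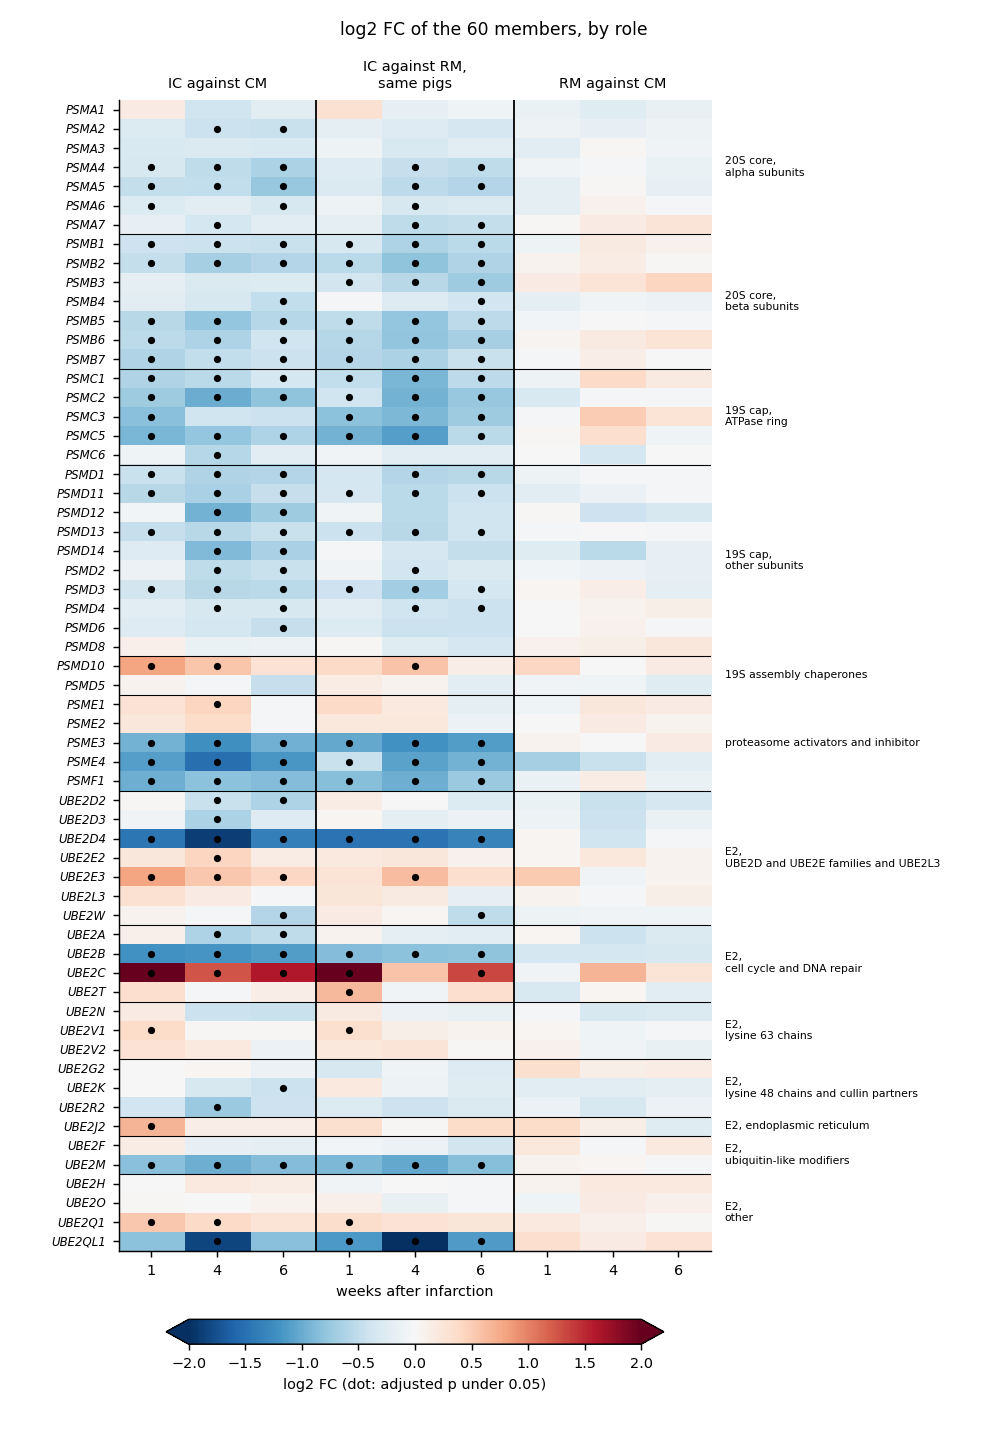
Heat map of the log2 FC of the 60 members, with a row for each gene grouped by role and a column for each stage (weeks after infarction) of IC against CM, IC against RM of the same pigs, and RM against CM; blue is lower, red is higher, and a dot marks an adjusted p under 0.05. The proteasome rows are mostly blue with dots in the first 6 columns, the E2 rows are mixed, and no dot stands in the 3 columns of RM against CM.

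The 20S core is a stack of rings, the outer ones of alpha subunits, which form the gate, and the inner ones of beta subunits, which carry the cutting sites. All 7 alpha subunits were measured, of which 3, 4 and 4 fell at the 3 stages. PSMA4 and PSMA5 fell at every stage, PSMA4 with log2 FC of -0.33, -0.50 and -0.63 and PSMA5 with -0.48, -0.50 and -0.76 (SE 0.13 and 0.18). PSMA1 and PSMA3 passed the test at no stage, with log2 FC of 0.16, -0.40 and -0.23 for PSMA1 and of -0.31, -0.29 and -0.31 for PSMA3.

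Of the 7 constitutive beta subunits 5, 5 and 6 fell. Those that carry the cutting sites are PSMB5 (chymotrypsin-like), PSMB6 (caspase-like) and PSMB7 (trypsin-like), and all of them fell at every stage. The log2 values of PSMB5 were 8.32, 8.34 and 8.43 in CM, 7.91, 7.71 and 7.82 in IC at 1 week, 7.59, 7.78 and 7.42 at 4 weeks, and 8.08, 7.82 and 7.49 at 6 weeks. The 9 IC arrays thus lay below the lowest CM array. The log2 FC of PSMB5 was -0.55, -0.77 and -0.57 (SE 0.14; adjusted p = 0.00314, 0.000188 and 0.0033 in limma), so that IC held 68.2%, 58.8% and 67.4% of the CM level. PSMB6 had log2 FC of -0.53, -0.61 and -0.39 and PSMB7 of -0.61, -0.50 and -0.42. The structural subunits PSMB1 and PSMB2 fell at every stage as well, PSMB4 at 6 weeks, and PSMB3 did not pass the test against CM (-0.20, -0.28 and -0.28).

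The ATPase ring of the 19S cap unfolds the target and feeds it into the core. Of its 5 measured subunits 4, 4 and 3 fell, with median log2 FC of -0.72, -0.57 and -0.44. PSMC2 and PSMC5 had the largest mean fall over the 3 stages. The log2 values of PSMC2 were 8.25, 8.16 and 8.32 in CM, 7.62, 7.38 and 7.59 in IC at 1 week, 7.25, 7.40 and 7.13 at 4 weeks, and 7.59, 7.51 and 7.25 at 6 weeks. No IC array reached the lowest CM array, and the log2 FC was -0.72, -0.99 and -0.80 (SE 0.12; adjusted p = 8.3e-05, 2.56e-06 and 5.25e-05 in limma). The other 2 tested probe sets of PSMC2 also fell at every stage, with log2 FC between -0.54 and -0.81. PSMC5 had log2 FC of -0.91, -0.77 and -0.62, and PSMC1 of -0.60, -0.54 and -0.35. PSMC3 fell at 1 week (-0.83) and not at 4 or 6 weeks (-0.39 and -0.44), and PSMC6 fell at 4 weeks only (-0.57).

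Of the other 10 subunits of the 19S cap, which form its lid and its base, 4, 8 and 9 fell. PSMD1, PSMD3, PSMD11 and PSMD13 fell at all 3 stages, with log2 FC between -0.37 and -0.65. PSMD4, a ubiquitin receptor, had -0.23, -0.32 and -0.32 and fell at 4 and 6 weeks. PSMD14, which strips ubiquitin from the target before it enters the core, had -0.26, -0.89 and -0.65 and also fell at 4 and 6 weeks, and PSMD12 and PSMD2 did so too. PSMD8 was the lid subunit that passed the test at no stage (0.10, -0.13 and -0.11). Of the 2 members that are chaperones of cap assembly, PSMD10, also known as gankyrin, rose at 1 week and 4 weeks with log2 FC of 0.79 and 0.55 (SE 0.17) and had 0.28 at 6 weeks, and PSMD5 was not called (0.08, -0.03 and -0.46).

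Besides the 19S cap, other regulators bind the ends of the core. PSME1 and PSME2 form the interferon-inducible activator PA28 alpha-beta, PSME3 is the nuclear PA28 gamma, PSME4 is the activator PA200, and PSMF1 is the inhibitor PI31. PSME3, PSME4 and PSMF1 fell at all 3 stages and were the proteasome genes with the largest mean falls in IC. PSME1 rose at 4 weeks (log2 FC 0.42, adjusted p = 0.0257 in limma) and had 0.30 and -0.03 at 1 and 6 weeks, and PSME2 was not called (0.23, 0.37 and -0.04).

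The log2 values of PSME4 were 6.91, 6.85 and 6.21 in CM, 5.68, 5.41 and 5.55 in IC at 1 week, 5.13, 5.51 and 4.82 at 4 weeks, and 6.01, 5.22 and 5.26 at 6 weeks. In RM they were 6.02, 5.95 and 6.03, then 6.28, 6.17 and 6.20, then 6.65, 6.31 and 6.36. All IC arrays lay below the lowest CM array, which itself stood apart from the other CM arrays. Of the RM arrays 5 were below that CM array too, the 3 at 1 week and the rest at 4 weeks. The log2 FC in IC was -1.11, -1.51 and -1.16 (SE 0.22; adjusted p = 0.000307, 1.36e-05 and 0.000323 in limma), or 46.4%, 35.2% and 44.7% of the CM level.

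For PSME3 the log2 values were 5.95, 5.80 and 5.81 in CM, 5.14, 4.69 and 4.88 in IC at 1 week, 4.82, 4.90 and 4.17 at 4 weeks, and 5.26, 4.62 and 4.78 at 6 weeks. The RM arrays, at 5.58, 5.97 and 6.22, then 5.82, 5.84 and 5.87, then 5.98, 5.73 and 6.33, lay around the CM arrays and above every IC array. The log2 FC in IC was -0.95, -1.22 and -0.96 (SE 0.22; adjusted p = 0.00122, 0.000117 and 0.00147 in limma).

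PSMF1 had log2 values of 5.93, 6.09 and 5.82 in CM, 4.91, 4.92 and 5.07 in IC at 1 week, 5.22, 4.97 and 5.19 at 4 weeks, and 5.21, 5.34 and 4.68 at 6 weeks. In RM it had 6.25, 5.45 and 5.75, then 6.14, 6.15 and 6.02, then 5.81, 6.12 and 5.51. The groups IC and RM did not overlap, and the log2 FC of IC against CM was -0.98, -0.82 and -0.87 (SE 0.20; adjusted p = 0.00044, 0.00198 and 0.00169 in limma). A second probe set of PSMF1 fell at 1 and 6 weeks (-1.28 and -1.02) and did not pass the test at 4 weeks (-0.32).

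**Figure D2:**
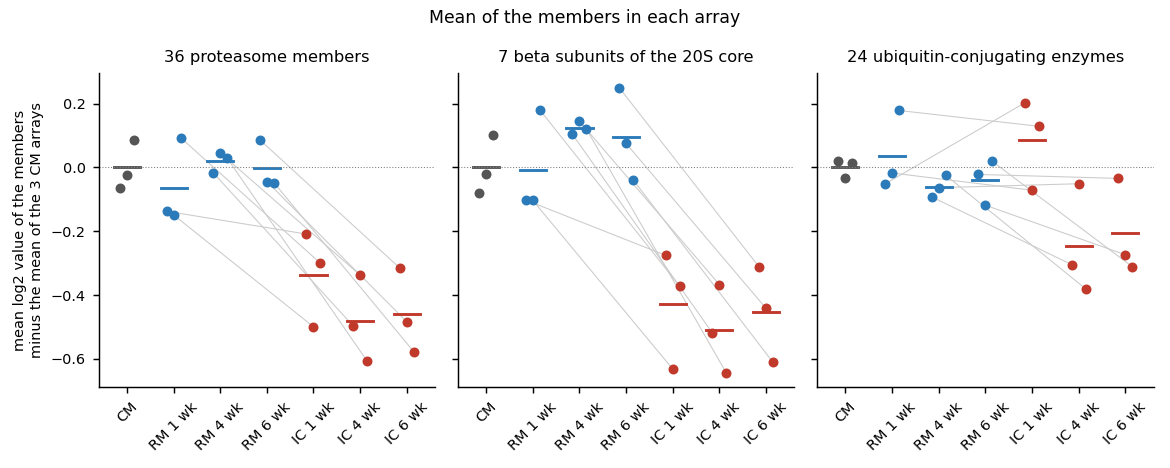
Mean log2 value of the members in each array minus the mean of the 3 CM arrays (vertical axis), for the 36 proteasome genes, the 7 beta subunits and the 24 E2 enzymes; points are arrays, bars are group means over 3 arrays, and grey lines join RM and IC of a pig. For the proteasome genes the 9 IC arrays lie between -0.61 and -0.21 and the 9 RM arrays between -0.15 and 0.09, while for the E2 enzymes both overlap.

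The spread between arrays can be read from the mean over the proteasome genes, set relative to CM. It was -0.06, -0.02 and 0.09 in the CM arrays and -0.15 to 0.09 in the RM arrays. In IC it was -0.21, -0.50 and -0.30 at 1 week, -0.50, -0.34 and -0.61 at 4 weeks, and -0.32, -0.48 and -0.58 at 6 weeks. IC was below RM in each of the 9 pigs, and no IC array overlapped RM or CM. The mean over the E2 enzymes was 0.20, -0.07 and 0.13 in IC at 1 week and -0.38 to -0.03 at the later stages, and it overlapped the RM arrays (-0.12 to 0.18).

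Counted over the stages, 20 of the 60 members fell at all 3 in IC against CM, 17 of them proteasome genes. This is 47.2% of the proteasome genes and 12.5% of the E2 enzymes, where 18.6% of all probe sets tested fell at all 3 stages. Only UBE2C and UBE2E3, or 3.33% of the members, rose at all 3 stages, beside 16% of all probe sets, and 14 members (23.3%) were called at no stage, beside 29.5%. UBE2C passed the filter only through IC, so its calls are description. The 9 IC arrays lay below the 3 CM arrays in 20 of the 36 proteasome genes (55.6%) and 3 of the 24 E2 enzymes (12.5%), beside 21.6% of all probe sets. These shares, and the array means above, are of the values as deposited. After cyclic loess fewer proteasome genes were called lower at each stage, nearer the share of all probe sets. The shares over all 3 stages under that scaling are not given here.

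The E2 enzymes that fell at every stage were UBE2D4, UBE2B and UBE2M. UBE2D4 belongs to the UBE2D family, whose members work with many E3 ligases. Its log2 values were 5.34, 5.41 and 5.57 in CM, 4.05, 3.85 and 4.10 in IC at 1 week, 3.55, 3.87 and 3.26 at 4 weeks, and 4.07, 4.07 and 4.08 at 6 weeks. In RM they were 5.05, 5.48 and 5.88, then 5.23, 4.80 and 5.10, then 5.11, 5.34 and 5.75, all above the highest IC array. The log2 FC in IC was -1.44, -1.88 and -1.37 (SE 0.20; adjusted p = 1.16e-05, 5.95e-07 and 3.85e-05 in limma), which left 36.9%, 27.2% and 38.7% of the CM level. Of the members that fell at all stages this was the largest mean fall. A second probe set of UBE2D4 gave -1.45, -1.40 and -1.34.

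Of its relatives, UBE2D2 had log2 FC of 0.02, -0.45 and -0.61 and fell at 4 and 6 weeks, though its 2 other probe sets did not and 1 of them rose at 1 week (0.40), and UBE2D3 had -0.06, -0.63 and -0.26 and fell at 4 weeks. The probe set of UBE2D3 shares probes with other transcripts, as does that of UBE2E3. In the same group UBE2E2 rose at 4 weeks (0.43), UBE2L3, an E2 of parkin and other ligases, was not called, and UBE2W, which tags the amino terminus of proteins, fell at 6 weeks (-0.59).

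UBE2B, a RAD6 homologue that ubiquitinates histones and takes part in DNA repair, had log2 values of 9.33, 9.47 and 9.43 in CM, 8.20, 8.18 and 8.20 in IC at 1 week, 8.25, 8.32 and 8.14 at 4 weeks, and 8.60, 8.21 and 8.08 at 6 weeks. The RM arrays lay between the other groups, at 8.83, 9.18 and 9.18, then 8.84, 9.15 and 9.18, then 9.13, 9.08 and 9.07. The log2 FC in IC was -1.22, -1.18 and -1.12 (SE 0.14; adjusted p = 1.32e-06, 1.77e-06 and 7.56e-06 in limma). The other RAD6 homologue, UBE2A, had 0.11, -0.61 and -0.51 and fell at 4 and 6 weeks. UBE2T, the E2 of the Fanconi anaemia pathway, was not called against CM (0.34, -0.04 and 0.13).

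UBE2M passes on NEDD8, the ubiquitin-like protein that switches on cullin ligases. It had log2 values of 6.03, 6.14 and 6.14 in CM, 5.47, 5.03 and 5.31 in IC at 1 week, 5.30, 5.30 and 4.79 at 4 weeks, and 5.38, 5.21 and 5.12 at 6 weeks. The RM arrays, at 5.85, 6.13 and 6.53, then 6.26, 5.88 and 6.30, then 6.14, 5.87 and 6.24, were all higher than IC. The log2 FC in IC was -0.84, -0.97 and -0.87 (SE 0.19; adjusted p = 0.000988, 0.000247 and 0.00101 in limma). UBE2F, the other E2 of NEDD8, was not called (0.15, -0.16 and -0.18).

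UBE2C, the E2 of the anaphase-promoting complex that drives the exit from mitosis, rose at all 3 stages. Its log2 values were 2.89, 2.88 and 3.00 in CM, 5.91, 4.66 and 6.49 in IC at 1 week, 3.73, 4.64 and 4.15 at 4 weeks, and 5.07, 4.48 and 4.04 at 6 weeks. In RM they were 2.85, 2.60 and 3.12, then 2.86, 4.35 and 3.61, then 3.61, 3.07 and 2.92. All IC arrays were above the CM arrays. The CM arrays lay under 3, the limit of the filter, as did 7 of the 12 arrays of CM and RM together. UBE2C thus passed the filter only through IC, and the size of its rise is not exact. For the same reason its calls and p-values, here and below, are description and no test of a rise. The log2 FC was 2.77, 1.25 and 1.61 (SE 0.40; adjusted p = 1.82e-05, 0.0143 and 0.00358 in limma), and without pig 20 the call at 4 weeks was lost (adjusted p = 0.0664 in limma). Genes of cycling cells rose as well at 1 week. Of that marker list 2 of 10 genes on the array passed the filter, TOP2A with log2 FC of 3.64, 1.70 and 1.85 and PCNA with 1.57, 0.53 and 0.51. Both were called higher at 1 week, and 1 of the 2 at 4 and at 6 weeks. The summed log2 level of the list was 6.00 to 6.41 in CM, 7.73 to 8.60 in IC at 1 week, 6.36 to 7.24 at 4 weeks and 6.51 to 7.38 at 6 weeks. Their part in the rise of UBE2C was not tested.

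UBE2E3 had log2 values of 7.14, 7.42 and 7.54 in CM, 8.13, 8.19 and 8.16 in IC at 1 week, 7.70, 8.21 and 7.84 at 4 weeks, and 7.77, 7.67 and 7.92 at 6 weeks. In RM it had 7.65, 8.07 and 7.94, then 7.25, 7.39 and 7.25, then 7.30, 7.23 and 7.79, so the RM arrays at 1 week also lay above CM. The log2 FC in IC was 0.79, 0.55 and 0.42 (SE 0.17; adjusted p = 0.000634, 0.0102 and 0.0481 in limma). Its 2 other probe sets did not pass the test at any stage, and the mean of the 3 gave 0.45, 0.42 and 0.13 with none called.

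Among the remaining E2 enzymes, UBE2J2 of the endoplasmic reticulum rose at 1 week (0.68), UBE2Q1 rose at 1 and 4 weeks (0.54 and 0.39), and UBE2V1, the partner of UBE2N in making chains used in signalling, rose at 1 week (0.36). UBE2N itself had 0.16, -0.44 and -0.44 and was not called against CM, nor was UBE2V2. Of the enzymes known for chains that mark proteins for the proteasome, UBE2R2 fell at 4 weeks (-0.74), UBE2K fell at 6 weeks (-0.43), and UBE2G2 was not called. UBE2QL1 fell at 4 weeks (-1.83), with an SE of 0.42 and CM arrays at 6.44, 4.93 and 4.34. UBE2H and UBE2O had log2 FC between 0.00 and 0.20.

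**Figure D3:**
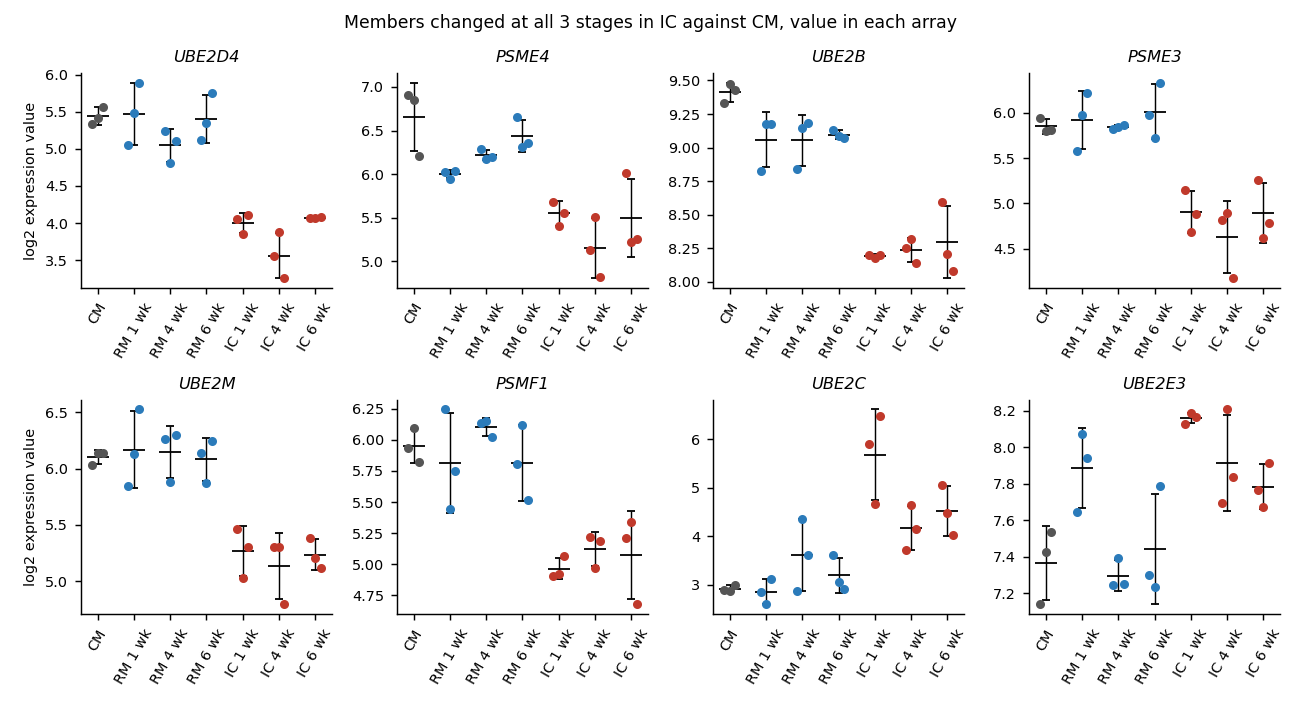
Log2 expression value in each of the 21 arrays for the 6 members with the largest mean fall among those lower at all 3 stages in IC and the 2 members higher at all 3; points are arrays, the dash and bars are the mean and SD of 3 arrays, and each panel has its own vertical axis. In the 6 panels of members that fell every IC array lies below every CM array.

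IC was also compared with RM of the same pigs, which takes out differences between animals. As IC came from the left ventricular scar and RM from the septum, infarct and region cannot be told apart in it. Against RM 16, 23 and 22 proteasome genes fell at 1, 4 and 6 weeks, and 0, 1 and 0 rose. Over all 60 members 20, 27 and 27 fell and 4, 2 and 1 rose, in a fit with the pig as a block, while 27.9%, 29.3% and 25% of all probe sets fell and 24.7%, 25.5% and 22.6% rose. After cyclic loess 13, 19 and 16 members fell and 10, 6 and 3 rose, and the shares of all probe sets under that scaling are not given here. The median log2 FC of the proteasome genes was -0.28, -0.53 and -0.44. IC was below RM in all 9 pigs for 19 of the 36 proteasome genes (52.8%) and 4 of the 24 E2 enzymes (16.7%), beside 26.9% of all probe sets.

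Of the 20 members that fell at all 3 stages against RM, 16 were proteasome genes, beside 19.1% of all probe sets that did so. Of the beta subunits 6 were among them, all but PSMB4, and of the ATPases 4, all but PSMC6. PSMC5 had log2 FC of -0.94, -1.10 and -0.54 against RM (SE 0.12), and PSMC3, which fell against CM at 1 week only, had -0.81, -0.90 and -0.71. UBE2D4 had -1.47, -1.48 and -1.33 against RM, and UBE2QL1 -1.14, -2.01 and -1.13, each called at every stage. PSME4 had -0.45, -1.07 and -0.94, and its call at 1 week was lost without any 1 of the 3 pigs of that stage and without the pairing (adjusted p = 0.0719 in limma). UBE2C, at or near the limit of the filter in most RM arrays, rose against RM at 1 and 6 weeks (2.83 and 1.33, SE 0.22) and had 0.56 at 4 weeks (adjusted p = 0.0517 in limma). UBE2T rose against RM at 1 week, where its RM arrays of 2.66, 2.87 and 3.13 lay around the limit of the filter, so the size of 0.65 is not exact.

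Several members that fell against CM at 4 weeks did not pass the test against RM of the same pigs. PSMD12 had log2 FC of -0.95 against CM and -0.54 against RM at 4 weeks, PSMD14 -0.89 and -0.34, UBE2A -0.61 and -0.18, UBE2D3 -0.63 and -0.19, and UBE2D2 -0.45 and 0.00. In RM against CM at 4 weeks the estimates for UBE2A, UBE2D2 and UBE2D3 were -0.43, -0.44 and -0.43, with none called.

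In RM against CM no member was called at any stage, while 1.13%, 1.08% and 0.197% of all probe sets were. The members with an unadjusted p under 0.05 numbered 6, 8 and 3, and the lowest adjusted p was 0.147, 0.187 and 0.225 in limma. Here and below, counts at an unadjusted p stand without the share over all probe sets and are description only. The median log2 FC of the 60 members was -0.02, 0.00 and -0.04. With arrays weighted by their quality 2, 5 and 0 members were called. The share of all probe sets called under that setting is not given, so these counts are description only. UBE2B was the member for which all 9 RM arrays lay below the lowest CM array, with log2 FC of -0.35, -0.36 and -0.32 (adjusted p = 0.251, 0.213 and 0.359 in limma). How many of all probe sets had this separation is not given. PSME4 had -0.66, -0.44 and -0.22.

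Between the IC stages, which are different pigs, the members called were all lower at the later stage. From 1 to 4 weeks 7 members fell and 0 rose, or 5 of 24 E2 enzymes and 2 of 36 proteasome genes, where 6.35% of all probe sets fell and 5.57% rose. From 1 to 6 weeks 8 members fell and 0 rose, 6 of them E2 enzymes, where 9.1% of all probe sets fell and 6.64% rose. Between 4 and 6 weeks no member was called, 7 had an unadjusted p under 0.05, and 3.88% of all probe sets were called. These counts rest on few arrays: from 1 to 4 weeks 1 member was called without IC of pig 7, 9 or 18 and 0 without pig 22, and from 1 to 6 weeks 0 were called without IC of pig 7, 9 or 3 and 4 without pig 5. In RM no member was called between stages, beside 1.59%, 0.181% and 0.632% of all probe sets, with 8, 4 and 3 members at an unadjusted p under 0.05 for 4 against 1, 6 against 1 and 6 against 4 weeks.

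UBE2A was lower in IC at both later stages. Its log2 values in IC were 7.36, 7.45 and 7.30 at 1 week, 6.48, 7.04 and 6.44 at 4 weeks, and 7.12, 6.45 and 6.68 at 6 weeks, with 7.23, 7.24 and 7.32 in CM. In RM they were 7.09, 7.29 and 7.52, then 6.80, 6.89 and 6.80, then 7.14, 6.68 and 7.11. The 1-week IC arrays did not overlap the later ones, and the log2 FC was -0.72 from 1 to 4 weeks and -0.62 from 1 to 6 weeks (SE 0.18; adjusted p = 0.0176 and 0.0294 in limma). A second probe set of UBE2A did not pass the test from 1 to 4 weeks (-0.12, with overlapping arrays) and fell from 1 to 6 weeks (-0.59). Against CM it fell at 6 weeks (-0.79) and not at 4 weeks (-0.32).

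PSMD12, a lid subunit, had log2 values in IC of 6.93, 6.57 and 6.75 at 1 week, 5.91, 6.27 and 5.37 at 4 weeks, and 6.53, 5.77 and 5.97 at 6 weeks, with 6.75, 6.82 and 6.83 in CM. In RM it had 6.64, 6.70 and 7.13, then 6.22, 6.38 and 6.55, then 6.56, 6.29 and 6.60. The 1-week IC arrays lay in the range of CM or near it and above all later IC arrays, and the RM arrays at 4 weeks lay below those at 1 week as well. The log2 FC was -0.90 from 1 to 4 weeks and -0.66 from 1 to 6 weeks (SE 0.21; adjusted p = 0.0124 and 0.0439 in limma).

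UBE2N had log2 values in IC of 8.20, 7.62 and 8.06 at 1 week, 7.16, 7.68 and 7.24 at 4 weeks, and 7.53, 7.12 and 7.40 at 6 weeks, with 7.66, 7.75 and 7.97 in CM. In RM it had 7.62, 7.78 and 7.92, then 7.45, 7.51 and 7.49, then 7.55, 7.18 and 7.78. The 1-week and 4-week IC arrays overlapped in 1 array each, and the log2 FC was -0.60 in both comparisons (SE 0.18; adjusted p = 0.0432 and 0.0341 in limma).

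UBE2D2 had log2 values in IC of 9.55, 9.02 and 9.30 at 1 week, 8.69, 9.04 and 8.75 at 4 weeks, and 8.99, 8.35 and 8.65 at 6 weeks, with 9.33, 9.15 and 9.33 in CM. In RM it had 9.00, 9.13 and 9.30, then 8.73, 8.90 and 8.86, then 8.92, 8.74 and 9.15. The log2 FC from 1 to 6 weeks was -0.63 (SE 0.17; adjusted p = 0.02 in limma), with no overlap of the IC arrays. Its 2 other probe sets had -0.43 and -0.18 there and were not called.

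UBE2W had log2 values in IC of 3.63, 2.90 and 3.50 at 1 week, 3.00, 3.49 and 3.27 at 4 weeks, and 2.86, 2.46 and 2.74 at 6 weeks, with 3.37, 3.15 and 3.33 in CM. In RM it had 3.04, 3.20 and 3.32, then 3.00, 3.15 and 3.48, then 3.18, 3.07 and 3.34. The 6-week IC arrays were the lowest of all 21 and lay under 3, the limit of the filter, and the log2 FC from 1 to 6 weeks was -0.66 (SE 0.19; adjusted p = 0.0239 in limma).

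UBE2C, whose array values are given with the rises, fell from 1 to 4 weeks by 1.52 on the log2 scale (SE 0.40; adjusted p = 0.0227 in limma). The other members that fell between IC stages were PSMA1, UBE2D3 and UBE2J2 from 1 to 4 weeks, and PSMD10, UBE2J2 and UBE2V2 from 1 to 6 weeks, with log2 FC between -0.41 and -0.56.

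**Figure D4:**
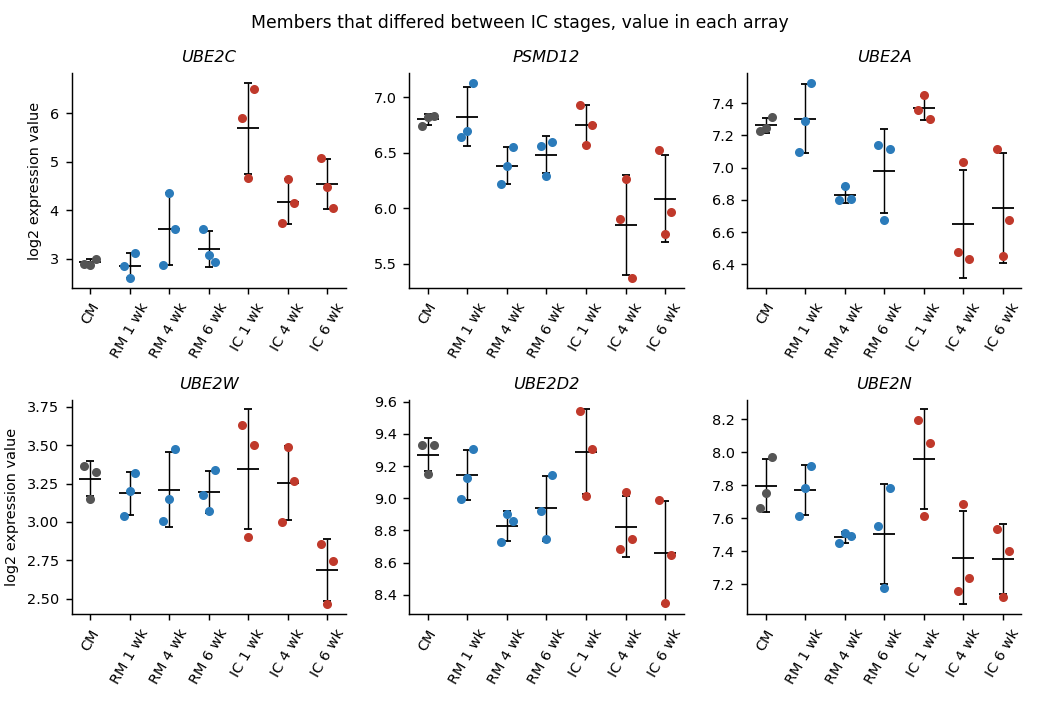
Log2 expression value in each of the 21 arrays for the 6 members with the largest log2 FC among those that differed between IC stages; points are arrays, the dash and bars are the mean and SD of 3 arrays, and each panel has its own vertical axis. The mean of IC at 1 week lies above that of IC at 4 and at 6 weeks, and in PSMD12, UBE2A, UBE2D2 and UBE2N the RM arrays at 4 weeks lie below the RM arrays at 1 week.

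Whether the difference of IC and RM itself changed with the stage was tested in the paired fit. For UBE2C the difference was smaller at 4 weeks than at 1 week by 2.27 on the log2 scale (log2 value -2.27, SE 0.31, adjusted p = 0.0491 in limma), and it was the 1 member called, beside 0.0657% of all probe sets. The mean of UBE2C in RM was 2.86 at 1 week, under the limit of the filter, and 3.61 at 4 weeks, so the change is in part one of RM and its size is not exact. As UBE2C passed the filter only through IC, this call is description. Without any 1 of the pigs 7, 9, 18, 20 and 22 the adjusted p was 0.0535 to 0.152 in limma. Between 6 and 1 weeks and between 6 and 4 weeks no member was called, beside 0.32% and 0% of all probe sets, with 4 and 4 members at an unadjusted p under 0.05. For the proteasome genes the median change of the difference against 1 week was -0.21 at 4 weeks and -0.21 at 6 weeks. Of their estimates 35 of 36 and 30 of 36 were below 0, and none was called. These genes were read on the same arrays and both changes share the 1-week arrays, so the counts of signs are no test. The median and share over all probe sets are not given here.

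Other genes of the pathway were read from lists of textbook members. Their counts stand beside 28.2%, 29.1% and 26% of all probe sets that fell in IC against CM and 26%, 25.3% and 21% that rose. Among the E3 ligases of striated muscle 6 of 8 fell and 0 rose at each stage. ASB11 had log2 FC of -3.98, -4.03 and -2.38, FBXO32 (atrogin-1) -2.94, -1.75 and -1.22, and RNF207 -1.98, -2.55 and -1.42. Of the genes of cullin ligases, 5, 5 and 4 of 6 fell. FBXW7, a substrate receptor, had -1.12, -1.52 and -1.01, and the RING subunit RNF7 had -0.71, -0.89 and -0.62, while CUL2 had -0.48, -0.47 and -0.33. All 4 genes of proteasome assembly and related factors fell at each stage. The chaperones PSMG3 and PSMG1 had -1.18, -0.74 and -0.63 and -0.97, -0.81 and -0.84, and PAAF1, which binds the ATPases, had -0.67, -0.61 and -0.64.

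The ubiquitin genes UBB and RPS27A were not called (-0.12, -0.05 and -0.07, and 0.15, 0.21 and 0.17). Of 4 genes of E1 enzymes 1, 2 and 2 fell, namely NAE1 of the NEDD8 E1 (-0.85, -0.78 and -0.54) and, at 4 and 6 weeks, its partner UBA3 (-0.79 and -0.66), while SAE1 and UBA2 of the SUMO E1 were not called. Among the 6 ubiquitin-like modifiers 2, 2 and 1 rose and 1, 2 and 3 fell. ISG15, an interferon-induced modifier, had 0.90, 2.86 and 1.20 and rose at 4 weeks, UFM1 rose at 1 week (0.56), and SUMO3 fell at 1 and 6 weeks (-0.50 and -0.59). NEDD8, named with UBE2M and NAE1 in view, fell at 4 and 6 weeks (-0.58 and -0.48).

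Of 19 deubiquitinases, which remove ubiquitin, 3, 1 and 1 rose and 6, 9 and 8 fell. The shares that fell were 31.6%, 47.4% and 42.1%, that at 1 week close to the share of all probe sets. UCHL1 rose at every stage (2.35, 3.68 and 2.90), and USP2 (-2.24, -2.09 and -1.28) and COPS5 (-1.03, -1.17 and -0.84), which takes NEDD8 off cullins, fell at every stage. Of 6 ubiquitin shuttles and segregase factors 4, 3 and 2 fell. BAG6 had -0.60, -0.58 and -0.23, SQSTM1 -0.60, -0.25 and -0.40, and NSFL1C -0.50, -0.96 and -0.78. Of the interferon-inducible core subunits PSMB8 rose at 1 and 4 weeks (1.12 and 1.24) and had -0.13 at 6 weeks, and PSMB10 was not called (0.40, 0.27 and 0.13). In RM against CM 1 gene of these lists was called, a deubiquitinase at 1 week.

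**Figure D5:**
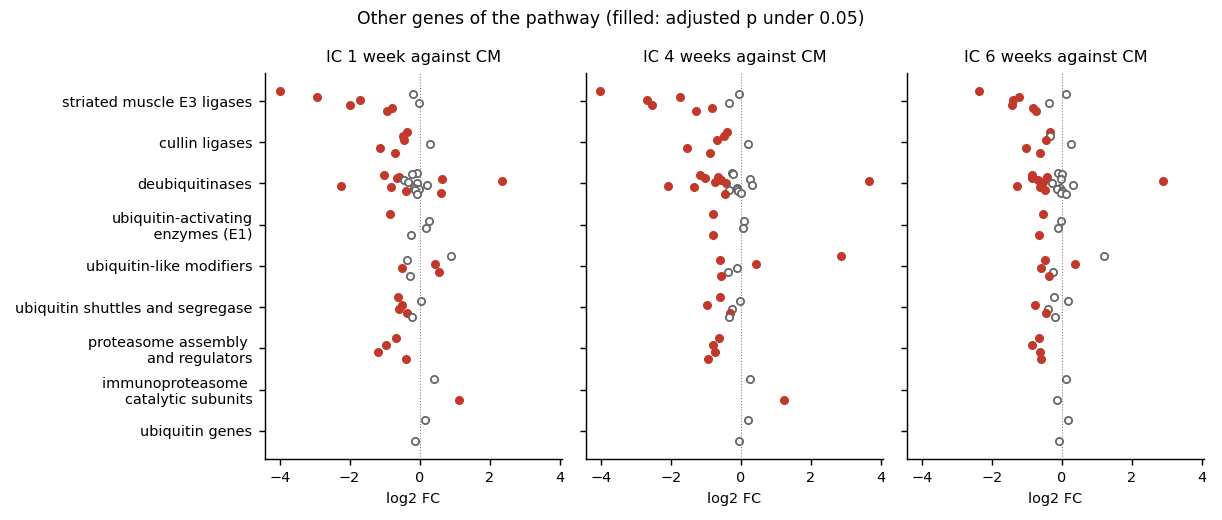
Log2 FC of IC against CM (horizontal axis) at 1, 4 and 6 weeks for the other genes of the pathway, 1 point per gene and 1 line of points per list; filled points have an adjusted p under 0.05. The E3 ligases of striated muscle reach -4.03, the 4 genes of proteasome assembly lie below 0 at every stage, and UCHL1, at 2.35 to 3.68, is the point furthest to the right at each stage.

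The makeup of the tissue moved with these results. The summed log2 level of 13 cardiomyocyte genes was 15.55 to 15.65 in CM and 15.56 to 15.68 in RM, and 14.94 to 15.17, 14.45 to 15.03 and 15.08 to 15.43 in IC at 1, 4 and 6 weeks, where 7, 9 and 6 of the 13 fell. That of 10 fibroblast genes was 10.87 to 11.62 in CM and 13.30 to 13.78 in IC, with 9 of 10 higher at each stage. That of 6 macrophage genes was 6.73 to 7.20 in CM, and in IC 9.49 or above at 1 week, 8.61 to 9.57 at 4 weeks and 8.00 to 8.99 at 6 weeks, and CD14 and ITGAM were among those that did not pass the filter. None of 6 lymphocyte genes on the array passed it. In bulk tissue fewer cells of a type and less RNA per cell cannot be told apart, and the part of the cell makeup in the values of the proteasome and E2 genes was not tested.

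Arrays of a group correlated with each other at a mean r of 0.950 or above. The labelling controls differed between stages. For the spiked control Dap the 3' signal exceeded the 5' signal by 2.42 to 2.52 in CM, by 1.82 to 2.20 in RM and IC at 4 weeks, and by 3.48 to 5.25 at 6 weeks (log2). For the spiked control Thr it was 3.16 to 3.80 in RM and 3.81 to 5.16 in IC at 6 weeks. The spiked control Phe went the other way, with 0.46 to 0.56 in RM and 0.28 to 0.84 in IC at 6 weeks. In CM Phe had 1.06 to 1.10. The spiked control Lys was not raised, with 2.07 to 2.38 in RM and IC at 6 weeks and 2.36 to 2.56 in CM. The spiked controls thus did not share a direction at 6 weeks. For actin, whose transcript comes from the tissue, the 3' signal exceeded the 5' signal by 1.51 to 1.64 in CM. In IC this was 1.69 to 1.92, 1.34 to 1.69 and 1.99 to 2.62 at 1, 4 and 6 weeks, and in RM 1.14 to 2.07, 1.04 to 1.07 and 1.53 to 1.63, so that IC lay above RM at 4 and 6 weeks and above CM at 1 and 6 weeks. The control signals thus moved with stage and with tissue. For actin, labelling and RNA quality cannot be told apart. Their part in the values of the members was not tested in any comparison, that of IC with RM of the same pigs included.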

How the data were processed

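Per the labels, the deposited values are log2 expression after RMA. This method, run by the authors on the 21 arrays, takes off background, sets all arrays to the same distribution and gives 1 value per probe set. The table of 24123 probe sets was used as it is. Gene names come from GEO's platform annotation, where a probe set has 1 symbol. Of the 60 members, 59 have a RefSeq gene of the same identifier, and 0 symbols differed. The members have 82 probe sets, of which 76 were tested, and 12 genes have more than 1 tested probe set. In no comparison were probe sets of a gene called in opposite directions.

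Group means were fitted in limma 3.58.1 under R 4.3.3 to 12180 probe sets with a value above 3 in at least 10 arrays (7 groups, 14 residual and 3.98 prior degrees of freedom). IC and RM of a pig were compared over 18 arrays in a model with a term for each pig (6 residual and 4.29 prior degrees of freedom), since the labels give both the same pig number. Their residuals correlated at r = 0.0714 to 0.491 in the 9 pigs, with a consensus of 0.207. Within a comparison the Benjamini-Hochberg adjustment ran over all probe sets, and adjusted p under 0.05 counted as called. SE is the standard error of the log2 FC. The fits were tested on simulated data. With 3 arrays per group the number of arrays limits the precision.

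Members, roles and lists of genes were chosen with earlier results of these data known. Array values are given for the up to 6 members with the largest mean rise or fall in IC against CM among those called at all 3 stages, for members called in RM, and for the up to 6 with the largest log2 FC between IC stages. Values of PSMB5, PSMC2 and UBE2QL1 (CM), and some of the members and other genes given with log2 FC only, were added after their values were seen. Alternatives were other filters, centring, cyclic loess, array weights, a mean-variance trend with robust settings, the mean of all probe sets of a gene, the pig as a block or not, and leaving out each array.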

Additional observations from a re-analysis of the deposited data

Results flagged for a closer look

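The difference of IC and RM in UBE2C was flagged because it changed between stages by a test of the change itself: it was smaller at 4 weeks than at 1 week, with a log2 value of -2.27 (SE 0.31, adjusted p = 0.0491 in limma). The RM arrays at 1 week (2.85, 2.60 and 3.12) lay around 3, the limit of the filter, and the RM mean was 2.86 at 1 week and 3.61 at 4 weeks. The size of the change is thus not exact. UBE2C passed the filter only through IC, so the call is description. IC was above RM in each of the 9 pigs. The adjusted p was 0.0511 to 0.0688 under cyclic loess and both ways of centring, and 0.283 without the pairing.

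A second probe set of PSMF1, which was not used for the gene, was flagged for a signal in RM at 4 weeks above the control arrays. Its log2 values were 5.25, 5.86 and 5.72 in RM at 4 weeks and 4.84, 4.61 and 4.41 in CM, a log2 FC of 0.99 (SE 0.21, adjusted p = 0.0332 in limma). The chosen probe set had 0.16 there (adjusted p = 0.742 in limma). Groups of 3 arrays were too small to look for single arrays far from the others.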

How the results depend on the processing

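Under every alternative other than leaving out an array, the numbers of members called were compared with rises and falls pooled. In IC against CM at 1 and 4 weeks and in RM against CM at 6 weeks they stayed within 1.5 times the reported ones. So did those in IC against RM at the 3 stages. Cyclic loess changed the directions more: fewer members fell and more rose in each of these IC comparisons. Whether the same held over all probe sets is not given for the rises. At 6 weeks against CM cyclic loess gave 20 in place of 34. With array weights 2 members were called in RM at 1 week and 5 at 4 weeks, 16 in place of 7 in IC between 4 and 1 weeks, 9 in RM between 4 and 1 weeks, and 1 in the difference of IC and RM between 6 and 1 weeks. With no filter 4 were called in IC between 4 and 1 weeks. Between 6 and 1 weeks in IC centring on the median gave 4 and on ribosomal protein genes 3 in place of 8. The mean of all probe sets gave 1 in RM between 4 and 1 weeks. The call of UBE2C in the difference of IC and RM between 4 and 1 weeks was lost (0 called) under cyclic loess, both ways of centring and no replicate block. Centring moved the median of all probe sets by over 0.1 in IC against CM, by -0.11 at 1 week for the median and by -0.18, -0.29 and -0.16 for ribosomal protein genes. Except for falls against CM under cyclic loess, the shares of all probe sets called under the settings here and below are not given. The counts of members are thus description only. The causes were not tested.

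With the pig as a random replicate block 27, 39 and 31 members were called in IC against CM, in place of 28, 38 and 34. Without the replicate block 21, 28 and 28 were called in IC against RM, in place of 24, 29 and 28.

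Leaving out 1 array gave 22 to 27, 28 to 36 and 20 to 34 members in IC against CM. The low values at 6 weeks came without CM of pig 33 (21) or IC of pig 5 (20). In IC against RM it gave 14 to 24 (14 without pig 9), 23 to 28 and 17 to 21 (17 without pig 5), between IC stages 0 to 8 (4 against 1 weeks) and 0 to 7 (6 against 1 weeks), and in the difference of IC and RM between 4 and 1 weeks 0 to 1. All RM comparisons gave 0.

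Of the log2 FC of named members under settings other than leaving out an array, 539 kept direction and call, 25 lost the call and 0 turned. With an array left out 307 kept it and 77 lost it. The falls of UBE2D4, UBE2B, UBE2M, PSME3, PSME4 and PSMF1 against CM kept their call under every alternative run. These members were chosen for large falls called at every stage, and most named members for their size or call. How they held thus does not speak for the other members, whose counts changed more under cyclic loess.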
